A study of Homo sapiens with 4 samples.

Results

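The 54 genes described here encode the machinery that makes ribosomes: the transcription apparatus of RNA polymerase I, the protein cores of the small nucleolar ribonucleoproteins (snoRNPs), abundant nucleolar proteins, and assembly factors of the small and large ribosomal subunits. They were chosen by gene symbol, from what their products do and not from their values, although earlier results of these data were known. All 54 were found among the 16658 genes of the expression table, and all 54 passed the filter on low values that left 10726 genes for testing.

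Ribosomes are built in the nucleolus. RNA polymerase I transcribes a long precursor rRNA, snoRNPs guide its ribose methylation and pseudouridylation, and nucleases and assembly factors cut, fold and export the nascent subunits. Dividing and tumor cells make ribosomes at a high rate, and many of these genes are known targets of the MYC transcription factor. ZCCHC4 belongs to the same pathway, because it is the methyltransferase that places N6-methyladenosine on the rRNA of the large subunit.

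RNA-seq was compared between wild-type cells (WT) and ZCCHC4 KO1 cells, both labelled HepG2, a human liver tumor line, with 2 libraries per group and 4 in all. ZCCHC4 KO1 is 1 of the knockout lines the study made with CRISPR/Cas9, so every difference compares a single edited line with its parent. Both groups were untreated and grown in DMEM with serum to near confluence before total RNA was extracted. The labels do not say whether the 2 libraries of a group came from separate cultures, so p-values measure the spread between these libraries, which may be technical. Levels are given as FPKM, the fragments assigned to a gene scaled by transcript length and by the fragments of the library. Differences are KO1 minus WT on the log2(FPKM + 1) scale, so that changes of weakly expressed genes appear smaller than they are. They were tested with limma across all 10726 genes with Benjamini-Hochberg (BH) adjustment.

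The edited gene was checked against the labels before the other results. The guide used by the study lies in the coding part of exon 1 of ZCCHC4, on the plus strand at chr4:25312824-25312843 (hg38), and is shown with the adjoining PAM in capitals.
ZCCHC4 guide: gaatgggtttgaagccgtggAGG
ZCCHC4 stood at an FPKM of 7.22 and 5.44 in WT, against 1.08 and 2.29 in KO1. Both KO1 libraries lay below both WT libraries, and the gene fell by 1.48 on the log2 scale (SE 0.29, limma, BH-adjusted p = 0.0448). A frameshift need not remove the mRNA, so this level checks the labels only in part. It missed the threshold without KO1 replicate 1, at a log2 difference of -1.15 (limma, BH-adjusted p = 0.0514, with 5.44e-06 to 0.115 over the other processing settings, apart from a crossed pairing of libraries described with the calls).

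The defining markers of the labelled cell type were near 0 or not among the rows analysed here. Of 16 liver markers, the table lists 8, and for 0 of the 8 did 2 libraries show an FPKM of 1 or more. AFP, a fetal liver protein that marks this tumor type, was listed at 0, 0.05, 0 and 0. Of 9 epithelial and mesenchymal markers, KRT8 and KRT18, keratins of simple epithelia, were abundant in all 4 libraries, and KRT7, a keratin of ductal and lung epithelia, stood between 2026 and 3078. The epithelial markers EPCAM (0 to 0.03), KRT19 (0 to 0.11) and CDH1 (0.11 to 0.60) were near 0, as was the mesenchymal FN1, whereas the mesenchymal VIM stood between 389 and 553 and CDH2 between 18.3 and 30.0. The libraries are therefore called by their labels, WT and ZCCHC4 KO1, in what follows. In bulk RNA, a change in the share of a kind of cell and a change in RNA per cell cannot be told apart.

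Ribosome biogenesis factors stood, on balance, slightly higher in KO1 than in WT. The log2 difference was above 0 for 47 of 54 (87.0%), against 46.8% of all tested genes, and its median was 0.27 against -0.03 for all tested genes. The differences were modest, from -0.43 for UTP18 to 0.87 for RRP9. Both KO1 libraries exceeded both WT libraries for 24 of 54 (44.4%), where 23.1% of all tested genes did so. The reverse held for 2 of 54, UTP18 and RRS1, where 28.5% of all tested genes did so. For the other 28 the libraries of the groups overlapped.

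No single factor passed the test after adjustment over all genes. With limma, 0 of 54 were called higher at an adjusted p under 0.05, where 1.5% of all tested genes were, and 0 were called lower, where 4.48% were. The cutoffs of the study were also applied to the limma results. At an FDR under 0.001 and a fold change of at least 2, 0 of 54 passed, against 0.0746% of all tested genes. The paper reports far more genes at its cutoffs, and the sources used here do not name its test. The shares given here therefore describe limma on log2(FPKM + 1) and not the calls of the study. At an unadjusted p under 0.05, 13 of 54 were higher, against 8.96% of all tested genes, and 0 were lower, against 13.9%. RRP9 came closest, with an adjusted p of 0.0502 by limma with BH adjustment. With 2 libraries per group, an exact two-sided permutation test of a single gene cannot go below 0.333.

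**Figure D1:**
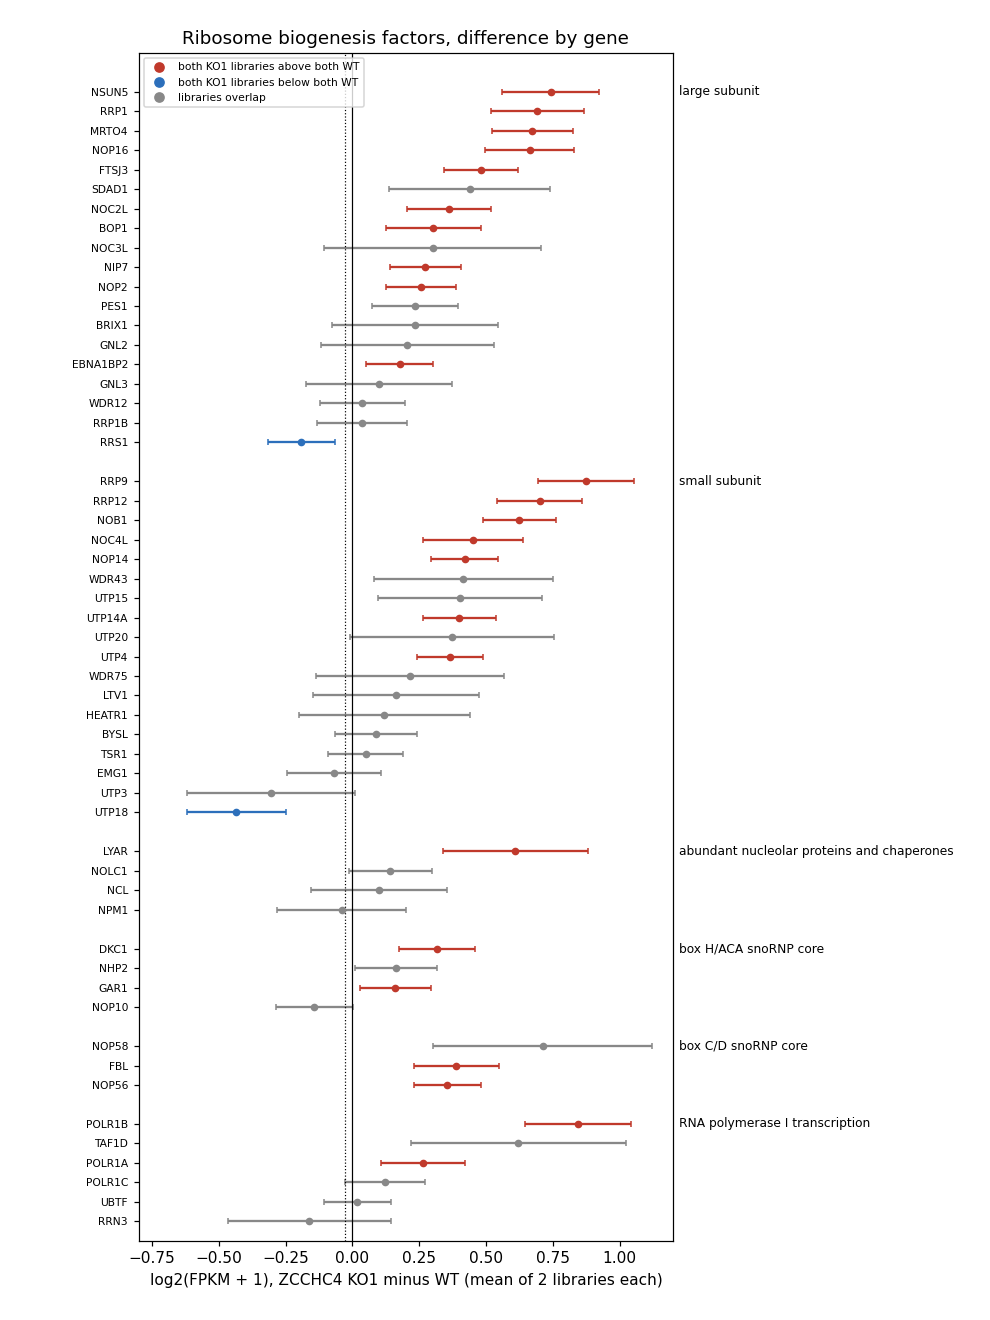
Difference of each of the 54 ribosome biogenesis factors, grouped by role. The horizontal axis is log2(FPKM + 1) in ZCCHC4 KO1 minus WT, points are differences of the means of 2 libraries each, bars are limma standard errors, the solid line marks 0 and the dotted line the median of all tested genes (-0.03). Red points (24 genes) have both KO1 libraries above both WT libraries, blue points (2 genes, UTP18 and RRS1) both below, and grey points (28 genes) overlap.

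**Figure D2:**
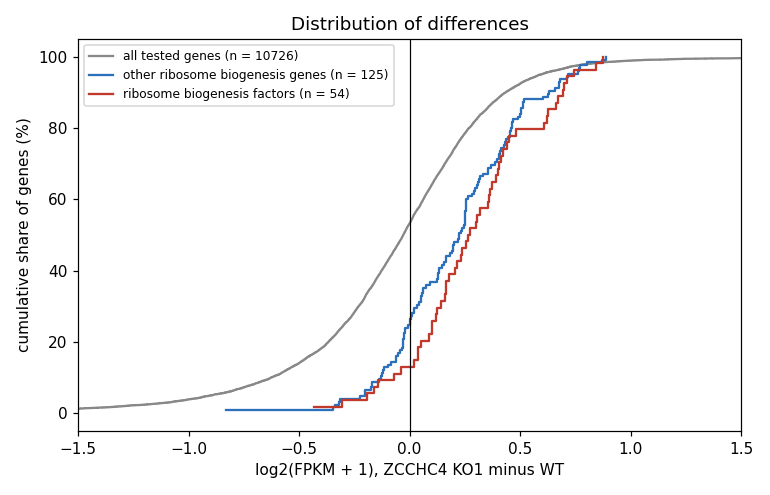
Cumulative share of genes by difference. The horizontal axis is log2(FPKM + 1) in ZCCHC4 KO1 minus WT and leaves out the tails of all tested genes; the vertical axis is the share of genes at or below that difference, in percent. The curve of the 54 factors (median 0.27) and that of 125 other ribosome biogenesis genes (median 0.23) lie to the right of that of all tested genes (median -0.03).

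The levels of the 54 factors covered a wide range. UTP15 was lowest in both WT libraries, at an FPKM of 5.49 and 3.60, and UTP3 was at 4.15 in KO1 replicate 1. NPM1 was the highest in all 4 libraries, at 1843 and 1451 in WT and 1334 and 1894 in KO1. The median factor stood at 47.5 and 52.3 in WT, against 65.8 and 65.0 in KO1. Summed without NPM1, the factors reached 3903 and 3872 in WT and 4728 and 4619 in KO1, so both KO1 sums were above both WT sums. With NPM1 included the sums were 5746 and 5323 in WT and 6062 and 6513 in KO1, again without overlap. The summed FPKM of all genes differed between libraries, however, at 512417 and 537437 in WT and 565199 and 521479 in KO1. As a share of these totals, the factors with NPM1 made up 1.12% and 0.99% in WT and 1.07% and 1.25% in KO1. These shares overlapped between the groups. They include NPM1, the highest factor in all 4 libraries, and the share without NPM1 was not calculated.

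**Figure D3:**
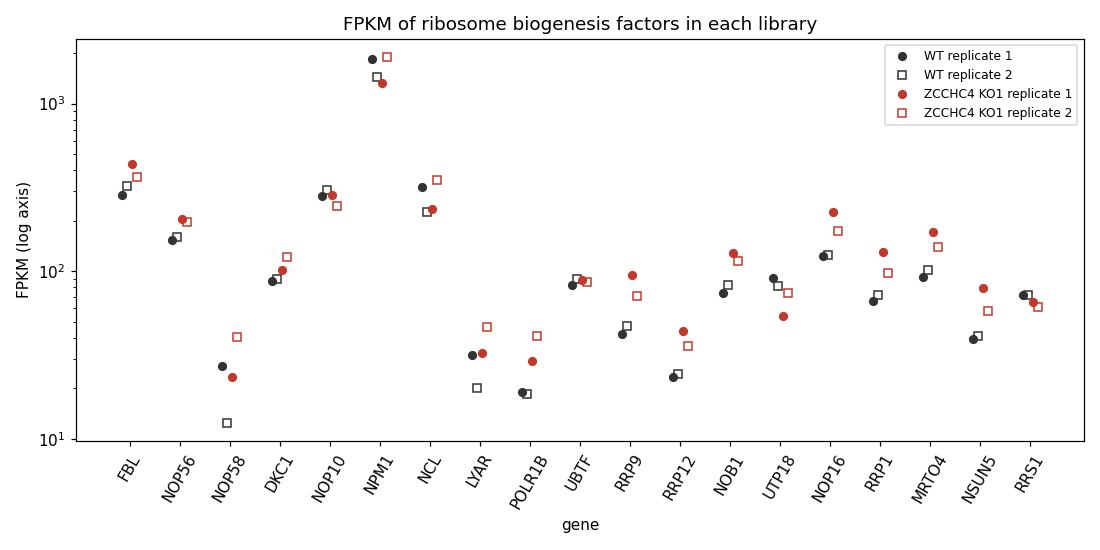
FPKM of 19 of the factors in each of the 4 libraries, on a log axis. The 19 were picked without a rule, so their share of separated genes does not stand for the whole list. Black symbols are WT and red symbols ZCCHC4 KO1, filled for replicate 1 and open for replicate 2. RRP9, RRP12, NOB1, NOP16, RRP1, MRTO4, NSUN5, POLR1B, FBL, NOP56, DKC1 and LYAR have both red symbols above both black ones. UTP18 and RRS1 have both below, and NPM1, NCL and NOP58 show replicates that differ by as much as the groups.

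Among the 6 genes of RNA polymerase I transcription, 5 had a difference above 0, with a group median of 0.19. In 2 of the 6, both KO1 libraries lay above both WT libraries, against 23.1% of all tested genes. POLR1B, a core catalytic subunit of the polymerase, stood at 19.0 and 18.6 in WT, against 29.0 and 41.0 in KO1. Both KO1 values were above the WT values but lay further from each other than the lower of them lay from WT, and the log2 difference was 0.84 (SE 0.20, limma, BH-adjusted p = 0.0709). POLR1B lies on the long arm of chromosome 2 at chr2:112542036-112579818 (GRCh38.p14), and 19 of its 20 nearest tested genes outside the list were also above 0, with a median of 0.42. The part of that neighbourhood in the POLR1B value was not tested. POLR1A, the largest subunit, was at 13.8 and 15.2 in WT and 17.2 and 17.99 in KO1, a narrow gap in the same direction. UBTF, the architectural factor that coats active rRNA genes and the most abundant of the 6 by FPKM, was at 82.5 and 90.1 in WT and 88.1 and 86.7 in KO1. The UBTF libraries overlapped, with a log2 difference of 0.02 (SE 0.13). TAF1D, a subunit of the promoter selectivity factor, ranged from 6.20 to 12.7 in WT and from 10.4 to 19.4 in KO1, so its log2 difference of 0.62 (SE 0.40) came with overlapping libraries. RRN3, which brings the polymerase to the promoter, had the lowest difference of the group, -0.16 (SE 0.31), and also overlapped.

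All 3 core proteins of the box C/D snoRNPs, which guide ribose methylation, had a difference above 0, with a median of 0.39. FBL, fibrillarin, is the methyltransferase itself and was the most abundant, at 285 and 325 in WT and 437 and 363 in KO1. Neither KO1 value reached down to the WT values, and the log2 difference was 0.39 (SE 0.16, limma, BH-adjusted p = 0.224). NOP56, a scaffold protein of the particle, was at 153 and 161 in WT and 206 and 196 in KO1, again without overlap, with a log2 difference of 0.36 (SE 0.12). NOP58, its paired scaffold, had a larger log2 difference of 0.71, but its SE was 0.41. The NOP58 libraries read 27.1 and 12.5 in WT and 23.4 and 40.7 in KO1, so the replicates of each group were as far apart as the groups.

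The 4 core proteins of the box H/ACA snoRNPs, which guide pseudouridylation, had a median of 0.16. DKC1, dyskerin, the pseudouridine synthase, was at 87.9 and 89.9 in WT and 102 and 121 in KO1. The groups did not overlap, and the log2 difference was 0.32 (SE 0.14, limma, BH-adjusted p = 0.256). GAR1 also did not overlap, by a small margin, at 36.9 and 36.4 in WT and 39.2 and 42.9 in KO1. NHP2 overlapped, with a log2 difference of 0.16. NOP10, the smallest of the core proteins and the most abundant transcript of the group in the mean of all 4 libraries, although NHP2 was higher in both KO1 libraries, was the single gene of the 4 below 0, at 280.1 and 305 in WT and 284 and 246 in KO1 (log2 difference -0.14, SE 0.14).

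Of the 4 abundant nucleolar proteins, 3 differed between the groups by less than their replicate spread. NPM1, nucleophosmin, a nucleolar chaperone that exports and scaffolds pre-ribosomes, had a log2 difference of -0.04 (SE 0.24). NCL, nucleolin, was at 319 and 226 in WT and 236 and 350.4 in KO1. For both, replicate 1 was the higher in WT and replicate 2 the higher in KO1, and the groups overlapped. NOLC1, a chaperone of snoRNPs, was at 109 and 101 in WT and 104 and 129 in KO1, also overlapping. LYAR, a nucleolar zinc finger protein that acts in rRNA processing, differed from these with a log2 difference of 0.61 (SE 0.27, limma, BH-adjusted p = 0.256). Its libraries read 31.7 and 20.1 in WT and 32.7 and 46.7 in KO1, so the groups were separated by a narrow gap between WT replicate 1 and KO1 replicate 1.

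Of the 18 small-subunit factors, 15 had a difference above 0, and the median was 0.37. Both KO1 libraries exceeded both WT libraries for 7, against 23.1% of all tested genes, and the reverse held for 1, against 28.5%. RRP9, the protein that binds the U3 snoRNA of the small-subunit processome, had the largest difference of all 54. It stood at 41.9 and 46.9 in WT, against 94.8 and 71.0 in KO1, a ratio of group means of 1.87. Every KO1 value was far above both WT values, and the log2 difference was 0.87 (SE 0.18, limma, BH-adjusted p = 0.0502, with 0.002645 to 0.165 over the same settings). The gene lies at chr3:51933429-51941904 (GRCh38.p14), and its 20 nearest tested genes outside the list had a median of -0.0014, with 10 of 20 above 0.

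RRP12, a factor of pre-ribosome export, was at 23.4 and 24.5 in WT and 43.7 and 35.7 in KO1, with a log2 difference of 0.70 (SE 0.16, limma, BH-adjusted p = 0.0642). NOB1, the endonuclease that releases the mature end of the small-subunit rRNA, was at 73.9 and 82.5 in WT and 128 and 114 in KO1. Its log2 difference was 0.62 (SE 0.14, limma, BH-adjusted p = 0.0594). For both genes the replicates of a group lay closer to each other than to the other group. NOP14 and NOC4L, partners in one early complex, had log2 differences of 0.42 (SE 0.12) and 0.45 (SE 0.19), each without overlap. UTP4, of the subcomplex that links transcription to processing, was at 78.0 and 83.0 in WT and 103 and 105 in KO1, and UTP14A, an activator of a processome helicase, was at 26.3 and 26.1 in WT and 33.4 and 36.4 in KO1.

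UTP18, a subunit of another processome subcomplex, had a difference of the opposite sign. It stood at 91.0 and 81.4 in WT, against 54.1 and 74.4 in KO1, and the log2 difference was -0.43 (SE 0.19, limma, BH-adjusted p = 0.238). Both KO1 values were below both WT values, although the KO1 replicates were far apart. UTP3 (log2 difference -0.30, SE 0.31) and EMG1, a methyltransferase of small-subunit rRNA (-0.07, SE 0.18), were also below 0 but overlapped. EMG1 was the most abundant of the small-subunit factors, at 116 and 147 in WT and 137 and 113 in KO1. The other members of the transcription-linked subcomplex, UTP15, WDR43, WDR75 and HEATR1, had differences of 0.40, 0.42, 0.21 and 0.12 with standard errors of 0.31 to 0.35, and all 4 overlapped. The late factors BYSL, TSR1 and LTV1 (0.09, 0.05 and 0.16) overlapped as well, as did UTP20 (0.37, SE 0.38).

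Of the 19 large-subunit factors, 18 had a difference above 0, and the median was 0.27. Both KO1 libraries exceeded both WT libraries for 10, against 23.1% of all tested genes, and the reverse held for 1, against 28.5%. NSUN5, which methylates a cytosine of the large-subunit rRNA, had the largest difference of these. Its libraries read 39.1 and 40.9 in WT and 79.1 and 57.7 in KO1, and the log2 difference was 0.74 (SE 0.18, limma, BH-adjusted p = 0.0781). Both KO1 values were above the WT values, and KO1 replicate 1 was much the higher of the pair. NSUN5 lies at chr7:73302516-73308826 (GRCh38.p14) and has 2 named pseudogene copies in RefSeq, so reads may have been divided between near-identical copies.

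RRP1, a nucleolar factor of large-subunit rRNA processing, was at 66.4 and 71.8 in WT and 129.6 and 97.0 in KO1, with a log2 difference of 0.69 (SE 0.17, limma, BH-adjusted p = 0.0825). Its paralog RRP1B, near it on chromosome 21, was at 46.7 and 41.1 in WT and 40.0 and 50.5 in KO1, with a log2 difference of 0.04 (SE 0.17). The RRP1 groups did not overlap, whereas those of RRP1B did; the difference between the paralogs was not tested. MRTO4, a placeholder for the ribosomal stalk, was at 92.2 and 101 in WT and 171 and 140.0 in KO1 (log2 difference 0.67, SE 0.15). NOP16 was at 124 and 126 in WT and 227 and 173 in KO1 (0.66, SE 0.17). FTSJ3, an RNA methyltransferase of pre-rRNA processing, was at 47.0 and 50.9 in WT and 73.3 and 64.3 in KO1 (0.48, SE 0.14). In these 3 genes both KO1 values lay above both WT values, and KO1 replicate 1 was the highest library.

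BOP1, PES1 and WDR12 form one complex needed for large-subunit rRNA maturation, and their values were not alike. BOP1 was at 72.4 and 81.5 in WT and 109.7 and 82.3 in KO1, the lower KO1 value being just above WT. PES1 overlapped at 99.5 and 118 in WT and 140.4 and 116 in KO1. WDR12 was level, at 20.1 and 19.99 in WT and 19.0 and 22.3 in KO1. The nucleolar GTPases GNL2 and GNL3 (nucleostemin) also overlapped, with log2 differences of 0.20 (SE 0.32) and 0.10 (SE 0.27). EBNA1BP2, the most abundant large-subunit factor by FPKM, was at 203 and 202 in WT and 238 and 221 in KO1, a small separation of 0.18 (SE 0.13).

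RRS1, which helps load the ribonucleoprotein of the smallest rRNA, was the single large-subunit factor below 0. It stood at 71.9 and 72.0 in WT and 65.0 and 60.8 in KO1, with a log2 difference of -0.19 (SE 0.12, limma, BH-adjusted p = 0.435). The separation was clear but small. Its 20 nearest tested genes outside the list had a median of -0.65, and 0 of the 20 were above 0, so RRS1 was less low than its neighbours. The part of that neighbourhood in its value was not tested.

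Replicates differed with the base composition of the transcript, and in opposite directions in the groups. Over the 54 factors, replicate 2 minus replicate 1 increased with GC content in WT (Spearman's rho 0.796) and declined with it in KO1 (-0.867), and over 10559 tested genes with a GC value rho was 0.72 and -0.778. Of the 21 factors with a GC content under 45%, 19 were lower in WT replicate 2 than in replicate 1 and 20 were higher in KO1 replicate 2 than in replicate 1, with medians of -0.59 and 0.67. These correlations are across genes of the same libraries and describe the libraries only. The 21 low-GC factors and the 33 others had similar median differences between the groups, 0.27 and 0.26. Libraries separated without overlap, KO1 above WT, for 4 of the 21 and for 20 of the 33, against 23.1% of all tested genes. The low-GC factors separated no more often than tested genes of every GC content did. The shares among tested genes of like GC content were not calculated, so neither count has a matched background. NPM1, NCL, NOP58, GNL3, BRIX1, HEATR1 and WDR75 all read high in WT replicate 1 and KO1 replicate 2 and low in the other two libraries.

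**Figure D4:**
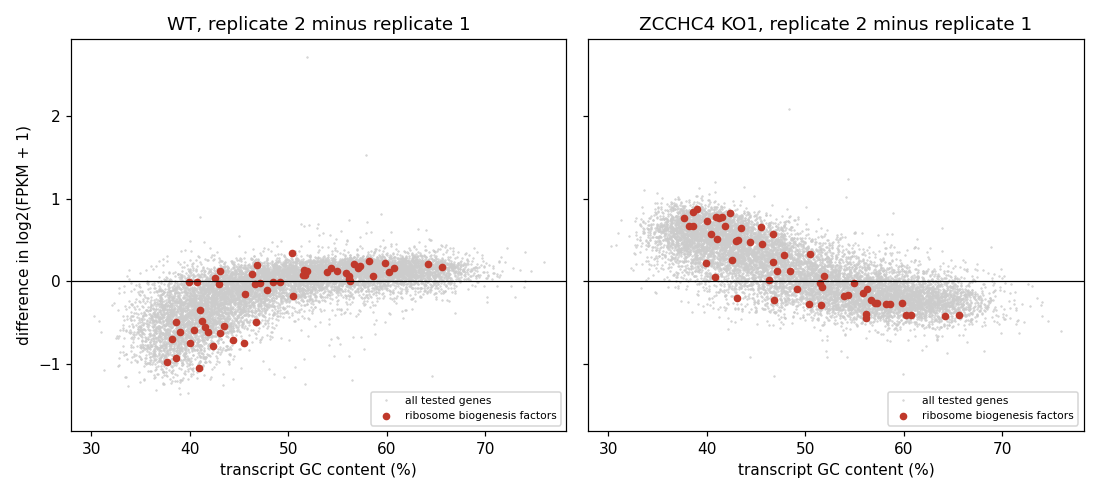
Difference between replicates against transcript GC content in percent, for WT (left) and ZCCHC4 KO1 (right). The vertical axis is replicate 2 minus replicate 1 in log2(FPKM + 1), grey points are all tested genes and red points the 54 factors. The WT points rise with GC content (rho 0.796 for the factors) and the KO1 points decline (rho -0.867).

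With the GC trend of each library removed by a spline, more factors passed. In that fit 16 of 54 (29.6%) were called higher, against 6.87% of all genes tested there, and 0 were called lower, against 12.6%. All 16 belonged to the 24 whose libraries did not overlap. POLR1B had a log2 difference of 0.96 (limma, BH-adjusted p = 0.00392). RRP9 rose by 0.75 (limma, BH-adjusted p = 0.0039), MRTO4 by 0.67 (0.00524), NOB1 by 0.58 (0.00749) and RRP1 by 0.58 (0.00923). These 5 lead the list, and they come from the polymerase and from both subunits. NSUN5, NOP16, RRP12, UTP4, FTSJ3, DKC1, NOP14, LYAR, UTP14A, NOP56 and FBL followed, with differences of 0.30 for FBL to 0.72 for LYAR. The snoRNP enzymes DKC1 (limma, BH-adjusted p = 0.0305) and FBL (0.041) were thus among those called on this scale. UTP18 was at -0.34 and did not pass (limma, BH-adjusted p = 0.11).

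Both the calls and the signs of single factors depended on the libraries and the fit. Over the other settings that used all libraries, 0 to 8 of 54 were called higher, where 0.492% to 4.34% of all tested genes were, and 0 lower, where 1.57% to 7.05% were. A crossed block, which paired WT replicate 1 with KO1 replicate 2 and WT replicate 2 with KO1 replicate 1 and was chosen after the values had been seen, is not counted there and called 31 higher and 2 lower, against 21.5% and 27.8% of all tested genes. Without KO1 replicate 2, 9 were called higher (RRP9, RRP12, NOB1, NOC4L, NOP16, RRP1, MRTO4, FTSJ3 and NSUN5) and 1 lower (UTP18, -0.66), against 5.2% and 9.67% of all tested genes. In the same fit 35 of 54 were above 0, against 38.9% of all tested genes. Without WT replicate 2, 38 of 54 were above 0, against 39.9% of all tested genes, and the median was 0.18. The sign turned for 19 of 54 when a library was left out, all of them factors whose groups overlapped, and 15 of the 19 were above 0 with all libraries.

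**Figure D5:**
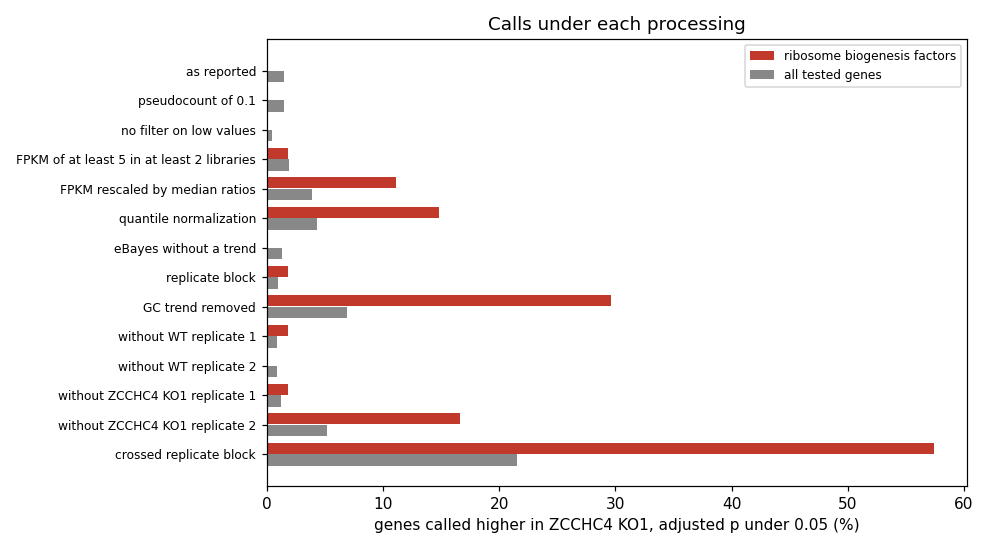
Share of genes called higher in ZCCHC4 KO1 (limma, adjusted p under 0.05), in percent, under each processing. Red bars are the 54 factors and grey bars all tested genes. The share of factors runs from 0 as reported to 29.6% with the GC trend removed, where it is 6.87% for all genes, and is highest with the crossed replicate block, which was chosen after the values had been seen.

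The wider pathway leaned the same way, though not equally in every role. Of 125 other genes of ribosome biogenesis, all tested, 1 was called higher and 0 lower, against 1.5% and 4.48% of all tested genes. In all, 94 (75.2%) were above 0, against 46.8% of all tested genes, and the median was 0.23. Both KO1 libraries exceeded both WT libraries for 47, against 23.1% of all tested genes, and the reverse held for 5, against 28.5%. The gene called was NAT10, the acetyltransferase of small-subunit rRNA, at 40.6 and 41.7 in WT and 66.6 and 66.0 in KO1. Its replicates nearly coincided, and it rose by 0.68 on the log2 scale (SE 0.12, limma, BH-adjusted p = 0.0393). The call was lost under 6 of 13 other settings: with the replicate block (limma, BH-adjusted p = 0.187), without a filter (0.0579), without a variance trend (0.0703), without either WT library (limma, BH-adjusted p = 0.353 without WT replicate 1, 0.271 without WT replicate 2) and without KO1 replicate 1 (0.0527). Apart from the crossed block, the adjusted p of limma ran from 0.00838 to 0.353 over these settings. By role, 36 of 42 other small-subunit factors and 34 of 43 other large-subunit factors were above 0, with medians of 0.29 and 0.24. The RNA exosome and related nucleases trim rRNA ends and degrade spacers. Their 17 genes were more evenly divided, with 10 above 0 and a median of 0.13. So were 9 genes of snoRNP assembly, with 5 above 0 and a median of 0.19. Among 14 other genes of RNA polymerase I transcription, 9 were above 0, with a median of 0.12.

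Most listed genes of the cell cycle did not share this direction. Of 14 proliferation markers, 4 were above 0, against 46.8% of all tested genes, 10 were below, and the median was -0.22. For 1 of them, PLK1, both KO1 libraries lay above both WT libraries, against 23.1% of all tested genes. The reverse held for 6, against 28.5%, and 7 overlapped. RRM2, a subunit of ribonucleotide reductase, was at 109 and 105 in WT and 49.2 and 61.1 in KO1, and fell by 0.95 on the log2 scale (SE 0.15, limma, BH-adjusted p = 0.0264). RRM2 was the single proliferation marker called, where 4.48% of all tested genes were called lower. The part of proliferation in the values of the ribosome biogenesis factors was not tested.

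Promoters were examined for short motifs shared by the factors. A sequence of 300 bases, 250 before and 50 after the annotated start, was found in RefSeq (GRCh38.p14) for 48 of 54 factors and for 8827 tested genes. The E-box CACGTG, which reads the same on both strands and is bound by MYC and related factors, occurred in 18 of 48 (37.5%), in 10.6% of the promoters of tested genes and in 7.43% of all 27305 promoters. Within 50 bases of the start it occurred in 15 (31.2%) of the factors and 4.52% of tested genes. The CCGGAAG core of ETS factors was found in 41.7% of the factors and 21.0% of tested genes, counting both strands. The GC box GGGCGG (77.1% and 71.9%), CCAAT (37.5% and 37.1%) and TATAAA (4.17% and 5.22%) were about as frequent in both. A match is a description of the sequence and not a binding site, and overlap between motifs was allowed. The median log2 difference was 0.33 for factors with an E-box and 0.25 for those without.

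Of the 18 factors with an E-box, 8 had both KO1 libraries above both WT libraries, against 24 of all 54 (44.4%) and 23.1% of all tested genes. The part of the motif in the differences was not tested. The windows that follow show the E-box, in capitals, in the 9 factors with one whose libraries did not overlap. Of these, 8 were higher in KO1 and 1 lower, and factors with overlapping libraries are not shown. The windows display how close to the start site the motif lay. Each is written in the direction of the gene, and the number of the first motif base is counted from the start site. They come from RRP9 (minus strand, chr3:51941892-51941921, -5), MRTO4 (plus strand, chr1:19251807-19251836, 14), FBL (minus strand, chr19:39846356-39846385, 6), NOP14 (minus strand, chr4:2963374-2963403, 15), NOP2 (minus strand, chr12:6568242-6568268, 35), UTP4 (plus strand, chr16:69132621-69132650, -16), UTP14A (plus strand, chrX:129905914-129905940, -241), EBNA1BP2 (minus strand, chr1:43172790-43172819, -237) and UTP18 (plus strand, chr17:51260538-51260567, 4).
RRP9: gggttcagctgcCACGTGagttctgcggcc
MRTO4: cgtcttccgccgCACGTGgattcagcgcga
FBL: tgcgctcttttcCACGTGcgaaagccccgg
NOP14: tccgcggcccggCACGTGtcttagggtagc
NOP2: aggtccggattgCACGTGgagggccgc
UTP4: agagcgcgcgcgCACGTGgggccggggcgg
UTP14A: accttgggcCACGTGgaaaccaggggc
EBNA1BP2: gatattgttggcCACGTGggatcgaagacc
UTP18: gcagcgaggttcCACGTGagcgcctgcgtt
In 7 of the 9 the motif lay within 50 bases of the start, and the factors with the highest (RRP9) and the lowest (UTP18) difference both carried it there.

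Some of these genes also hold snoRNA genes within their bounds, so that 1 transcript may yield a processing factor and guide RNAs. By GENCODE v44, 9 of the 54 hold 34 snoRNA genes on their own strand, with 8 in TAF1D, 6 in GNL3, 5 in NOP56 and 4 in NOP58. Introns and exons were not told apart, and the count includes genes without a symbol, among them the only one in POLR1C. All 9 hosts had a difference above 0, and their median was 0.32, against 0.26 for the 45 other factors, of which 38 were above 0. The hosts include genes with overlapping libraries, such as TAF1D and GNL3, so no difference between hosts and others is drawn.

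The factors lie on 19 chromosomes, and 46 of 54 stood above the median of their 20 nearest tested genes outside the list. The same share over all tested genes was not calculated, and 47 of the 54 were above 0 without regard to neighbours. The median of those neighbourhood medians was 0.0048, and the median excess of a factor over its neighbourhood was 0.31. Some factors lie close together, such as UTP4, NIP7 and NOB1 on chromosome 16 and NOP58 and WDR12 on chromosome 2. The neighbours of such factors are at least partly shared, so the 54 comparisons are not independent. Several transcripts have processed copies in the genome, and RefSeq names 50 pseudogenes of NPM1, 4 of RRN3 and 4 of SDAD1. The division of reads among such copies is not known, and the levels of these genes are therefore uncertain.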

How the data were processed

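Total RNA from WT and ZCCHC4 KO1 cells, 2 libraries each, was sequenced. The study's methods give alignment to GRCh38 with Bowtie2 and quantification with RSEM, and the authors deposited FPKM values per library under Entrez identifiers. The methods name the BGISEQ-500 platform and the labels an Illumina HiSeq instrument. Software versions, annotation and read filters are not given in the sources used here. Because FPKM are not counts, count models were not applied. The depth is unknown, and precision rests on 2 libraries per group. Columns were matched to samples by title, and 0 columns were left without a sample.

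Genes with an FPKM of at least 1 in at least 2 libraries were kept, and log2(FPKM + 1) was compared with limma 3.58.1 in R 4.3.3 (lmFit, eBayes with a trend, BH adjustment over 10726 genes). The procedure was run on simulated data with independent noise per gene and shifts larger than those of the factors. That run does not cover the GC-linked spread between these libraries. Symbols came from RefSeq and were found for 16384 of 16658 genes. GC content came from the longest GENCODE v44 transcript and covered 98.4% of tested genes. Motifs were searched as exact letters.

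The 54 factors, the other gene lists and the alternatives were chosen with earlier results of these data known. Genes named by rule were ZCCHC4, factors with an adjusted p under 0.05, the most abundant factor and the 2 largest rises and falls of each role group, and other pathway genes called. All other names were chosen after their values were seen. Alternatives were another pseudocount (0.1), no filter or a minimum FPKM of 5, median-ratio scaling, quantile normalization, no variance trend, a replicate block, removal of the GC trend (natural spline, 4 degrees of freedom) and leaving out each library. A crossed replicate block was added after the values were seen.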

Additional observations from a re-analysis of the deposited data

How the results depend on the processing

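The libraries' replicate numbers are shared between the groups only as numbers, and the deviations of same-numbered libraries from their group means were opposed (Pearson's r -0.787 across 10726 genes). With the replicate number as a block, limma called 1 factor, 0 other pathway genes and 107 genes of all higher. A crossed pairing, chosen after seeing the data, left 1 residual degree of freedom and gave 31 factors, 57 other pathway genes and 2309 genes higher and 2, 6 and 2986 lower. Factors called higher numbered 1 with a minimum FPKM of 5, 6 after median-ratio scaling, 8 after quantile normalization and 16 after removal of the GC trend, and 0 to 9 with a library left out (lower, 0 to 1). A left-out library leaves 1 in its group, which is then assumed to vary like the other group. For the other pathway genes the numbers higher were 0 without a filter, 10, 9, 0 without a variance trend, 29 with the GC trend removed and 0 to 18 with a library left out, and the numbers lower 1 with median ratios, 3 with the GC trend removed and 0 to 2. Over all genes, 82 were higher and 262 lower without a filter, 421 and 756 with median ratios, 466 and 721 after quantile normalization, 725 and 1328 after removal of the GC trend, and 97 to 558 and 273 to 1037 with a library left out. The factors' median ran from 0.18 to 0.38 with a library left out. ZCCHC4 missed the threshold with a pseudocount of 0.1 (-1.92, limma, BH-adjusted p = 0.0551) and without a filter (-1.48, limma, BH-adjusted p = 0.115, with more genes tested), and ran from -1.81 to -1.15 with a library left out. With all libraries the sign turned for UBTF (-0.008 with quantile normalization, -0.0352 after removal of the GC trend), NPM1 (0.0288 with median ratios, 0.0595 after removal of the GC trend) and EMG1 (0.0003 with median ratios). With a library left out it turned at least once for 19 factors, which are UBTF (-0.0443 to 0.0817), NPM1 (-0.29 to 0.21), EMG1 (-0.24 to 0.10), BRIX1 (-0.117 to 0.585), GNL3 (-0.22 to 0.42), NCL (-0.18 to 0.38), NOLC1 (-0.014 to 0.298), RRN3 (-0.54 to 0.22), RRP1B (-0.13 to 0.20), UTP3 (-0.664 to 0.0548), UTP20, WDR75, HEATR1, BYSL, TSR1, LTV1, WDR12, GNL2 and NOC3L, the last 9 reaching at lowest -0.04, -0.22, -0.27, -0.03, -0.06, -0.17, -0.07, -0.17 and -0.19. The causes were not tested. The number of libraries limits every value, and the depth is unknown.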
